A study of Mus musculus with 4 samples.

Results

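Pim1, Pim2 and Pim3, the 3 genes of the PIM family of serine/threonine kinases in the mouse, are described here in Mnk3 cells after cytokine stimulation. They were taken by name from the 41388 genes listed in the count tables, through the GENCODE M21 symbols of their Ensembl identifiers. Mnk3 is a mouse cell line used as a model of ILC3, the type 3 innate lymphoid cells. RNA-seq libraries of total RNA, depleted of ribosomal RNA, were made from 2 samples of Mnk3 cells kept for about 16 h with IL-1b plus IL-23, each at 10 ng/ml (stimulated 1 and 2), and from 2 samples of untreated Mnk3 cells (control 1 and 2). The number 1 marks the library with rep1 in its title and the number 2 the library without a number. Separate cultures are not stated for the libraries of 1 group, and p-values therefore reflect the spread of these libraries alone, which may be technical. All libraries are of 1 cell line.

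PIM kinases were first found at sites where leukaemia viruses insert in mouse lymphomas. They fold into an active state without an activating phosphorylation, so their activity is set mainly by how much transcript and protein a cell holds. Cytokine receptors that signal through JAK kinases and STAT factors are known to switch on their transcription in lymphocytes, where PIM kinases favour survival and growth beside the AKT kinases and phosphorylate several of the same proteins.

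Summed gene counts ranged from 23047723 to 26723058 in the stimulated libraries and from 28516816 to 29078765 in the controls. All 9 genes of an ILC3 marker list reached 1 CPM (the count scaled to library size, with TMM factors), with a summed level of 1750 to 1760 CPM in stimulated libraries and 3420 to 3660 CPM in controls, while the myeloid markers Lyz2 and Cd14 had 0 counts in all 4 libraries. T cell markers summed to 0.963 to 1.5 CPM in stimulated libraries and 5.96 to 9.86 CPM in controls. Stromal and epithelial markers summed to 1.31 to 2.1 CPM in stimulated libraries and 7.33 to 8.53 CPM in controls, B cell markers to 0.277 to 0.831 CPM in stimulated libraries and 1.3 to 1.63 CPM in controls, and myeloid markers to 0.474 to 1.18 CPM in stimulated libraries and 0.895 to 2.12 CPM in controls. Most of the T cell sum in controls was Trac, with 0.237 and 0.394 CPM in stimulated 1 and 2, against 4.14 and 8.6 CPM in control 1 and 2. Most of the stromal and epithelial sum in controls was Col3a1, with 0.554 and 1.75 CPM in the stimulated libraries, against 6.73 and 8.43 CPM in the controls. The part of these marker shifts in the results below was not tested.

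The promoters of the 3 genes are shown because the genes responded to the same stimulus by very different amounts. Each sequence is the plus strand of GRCm38.p6 as given by RefSeq, from 250 bases before the RefSeq transcription start to the base before the first annotated start of the gene. Capitals mark matches, on either strand, to a STAT word (TTCNNNGAA), the NF-kB consensus, an Sp1 box (GGGCGG), a CRE (TGACGTCA), a CCAAT box, a TATA box (TATAAA) or a POU octamer (ATGCAAAT). The octamer was added after the sequences had been read, and in Pim3 the NF-kB match overlaps an Sp1 box.
Pim1, chr17:29490535-29490752: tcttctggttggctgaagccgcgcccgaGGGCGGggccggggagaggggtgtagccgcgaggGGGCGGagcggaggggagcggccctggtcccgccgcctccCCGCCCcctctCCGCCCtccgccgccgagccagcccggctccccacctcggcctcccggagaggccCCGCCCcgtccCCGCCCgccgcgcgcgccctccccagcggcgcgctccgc
Pim2, chrX:7878056-7878261: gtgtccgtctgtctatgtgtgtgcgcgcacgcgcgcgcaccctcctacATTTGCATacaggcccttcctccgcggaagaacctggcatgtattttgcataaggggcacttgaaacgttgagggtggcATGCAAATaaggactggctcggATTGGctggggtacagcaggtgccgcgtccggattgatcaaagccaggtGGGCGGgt
Pim3, chr15:88861944-88862185: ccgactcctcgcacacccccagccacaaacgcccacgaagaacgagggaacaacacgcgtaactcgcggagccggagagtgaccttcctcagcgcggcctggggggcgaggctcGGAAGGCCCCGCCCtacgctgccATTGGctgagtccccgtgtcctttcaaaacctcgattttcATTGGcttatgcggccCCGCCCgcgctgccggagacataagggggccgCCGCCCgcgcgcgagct

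The 3 promoters differ in composition. In the full window, which also takes 50 bases after the start, Pim1 has a GC content of 81.3%, above 99.3% of the 32851 promoters of the table, Pim3 has 69.0% and Pim2 62.7%, against a median of 52.7%. Pim1 holds 7 Sp1 boxes and no other searched word. Pim3 holds 4 Sp1 boxes, 2 CCAAT boxes and 1 NF-kB match, and Pim2 holds 1 Sp1 box, 1 CCAAT box and 2 POU octamers that begin 202 and 123 bases before the start. Of all promoters, 35.7% hold an Sp1 box, 37.4% a CCAAT box, 8.46% an NF-kB match and 1.74% a POU octamer. A STAT word is held by 8.3% of promoters, a TATA box by 13.6% and a CRE by 1.79%, and none of these letters lie in the 3 windows.

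All 3 PIM genes passed the low-count filter and rose in stimulated cells, Pim2 by the most and Pim3 by the least. At an edgeR quasi-likelihood adjusted p under 0.05 they were 3 of 3 higher, where 17.5% of the 13838 genes tested were higher and 35.8% passed in either direction. In none of the 3 did the groups overlap, and 34.4% of tested genes had both stimulated libraries above both controls. In bulk RNA, a change in every cell and a change in the share of cells that express a gene cannot be told apart.

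Pim2, a kinase known in mouse T cells for sustaining growth when mTOR is inhibited, was near silent in control cells and abundant in stimulated cells. It had 4383 and 3022 counts in stimulated 1 and 2, against 89 and 73 counts in control 1 and 2. Scaled for library size, these were 173 and 132 CPM in the stimulated libraries, against 2.95 and 2.49 CPM in the controls. The lowest stimulated library thus lay far above the highest control. The fitted log2 change of stimulated over control was 5.81 ± 0.22 (SE), a fold of 56.0 (edgeR adjusted p = 0.000134). The change is large beside other genes, since 49 of the 13838 genes tested had a higher log2 change.

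Pim1, the founding member of the family and the PIM gene most often described as a STAT target, rose to the highest level of the 3. It had 494 and 449 CPM in stimulated 1 and 2, against 95.5 and 88.1 CPM in control 1 and 2. Within each group the libraries lay close together, and the groups were well apart. The log2 change was 2.36 ± 0.15, a fold of 5.14 (edgeR adjusted p = 0.000239), and 250 tested genes had a higher log2 change.

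Pim3, the third paralogue and the PIM gene with the highest level in untreated cells, changed little beside the others. It had 235 and 199 CPM in stimulated 1 and 2, against 153 and 146 CPM in control 1 and 2. The groups did not overlap, but the gap between them was not much wider than the gap between the stimulated libraries. The log2 change was 0.54 ± 0.15, a fold of 1.45 (edgeR adjusted p = 0.0284), and 2946 tested genes had a higher log2 change. This call ended without stimulated 1 (log2 change 0.41), without control 1 (0.57) and without control 2 (0.51). Those fits hold fewer samples, and why the call ended was not tested.

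**Figure D1:**
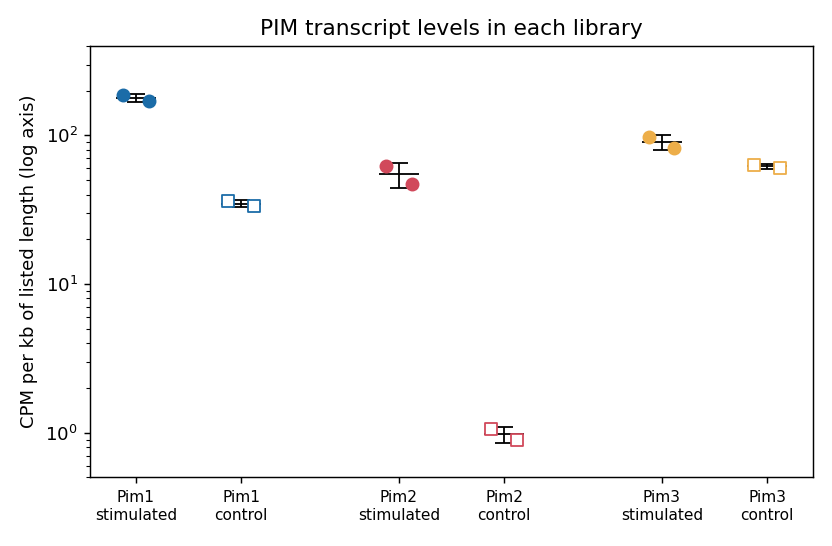
Level of each PIM gene in each library, as TMM-scaled CPM per kb of listed length on a log axis, with filled circles for stimulated and open squares for control libraries; bars give the mean ± SD of 2 libraries. Pim2 averages 54.7 CPM per kb in stimulated and 0.974 CPM per kb in control libraries, while Pim3 averages 89.8 and 61.8.

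To compare levels between the genes, CPM were divided by the gene length in the count tables, 2638 bases for Pim1, 2795 for Pim2 and 2419 for Pim3. On this scale Pim1 had 187 and 170 CPM per kb in stimulated 1 and 2 (mean 179), against 36.2 and 33.4 CPM per kb in control 1 and 2 (mean 34.8). Pim2 averaged 54.7 ± 10.4 CPM per kb in stimulated and 0.974 ± 0.116 in control cells (SD, n = 2 each), and Pim3 averaged 89.8 ± 10.6 in stimulated and 61.8 ± 2.02 in control cells. The order of levels was Pim1, Pim3, Pim2 in stimulated cells and Pim3, Pim1, Pim2 in control cells, and within each group no library of a gene overlapped with one of its neighbour in that order. Against all tested genes per kb, Pim1 stood above 98.0% in stimulated and 85.2% in control cells, Pim2 above 90.0% and 19.8%, and Pim3 above 94.6% and 92.7%.

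The family as a whole was higher in stimulated cells, and most of the gain was Pim1. The summed PIM level was 346 and 299.8 CPM per kb in stimulated 1 and 2, against 100.4 and 94.6 CPM per kb in control 1 and 2. The mean was 323 ± 33.0 in stimulated and 97.5 ± 4.12 in control cells (SD, n = 2 each), a ratio of 3.31. By an exact permutation test over the 4 libraries p was 0.333, the smallest that 2 libraries against 2 can give. Of the gain of 226 CPM per kb, Pim1 gave 63.8%, Pim2 23.8% and Pim3 12.4%. Pim2, which had by far the steepest fold, thus gave less of the gain than Pim1.

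The question set for these genes was how the share of each paralogue differed between stimulated and untreated cells. Pim1 made up 54.0% and 56.8% of the summed level per kb in stimulated 1 and 2, against 36.0% and 35.3% in control 1 and 2. Pim2 made up 17.9% and 15.8% in the stimulated libraries, against 1.05% and 0.942% in the controls. Pim3 made up 28.1% and 27.4% in the stimulated libraries, against 62.9% and 63.8% in the controls. Pim3 therefore held most of the family's transcript in untreated cells and Pim1 in stimulated cells.

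**Figure D2:**
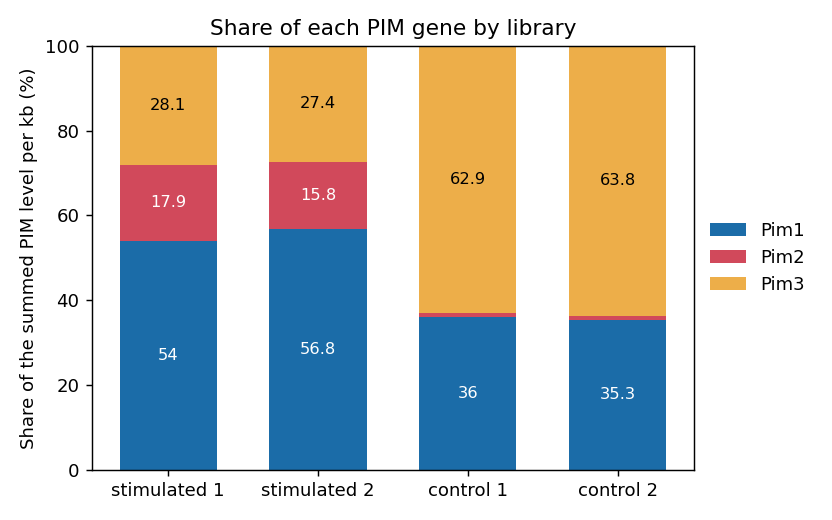
Share of Pim1, Pim2 and Pim3 in the summed PIM level per kb (percent) in each library. Pim3 holds 62.9% and 63.8% in the control libraries and 28.1% and 27.4% in the stimulated libraries, and Pim2 is barely visible in the controls.

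The difference in mean share, stimulated minus control, was 19.7 percentage points for Pim1 (55.4 ± 1.96% in stimulated and 35.7 ± 0.534% in control cells). It was 15.8 points for Pim2 (16.8 ± 1.51% and 0.997 ± 0.077%) and -35.6 points for Pim3 (27.8 ± 0.452% and 63.3 ± 0.611%). Each difference was many times the SD of either group. An exact two-sided permutation test over the 4 libraries gave p = 0.333 for each share, which is the smallest p that 2 libraries against 2 can give, so this test could not pass a threshold of 0.05. As shares of plain counts, Pim2 had 19.2% (95% Wilson interval 18.7 to 19.7) and 16.9% (16.4 to 17.5) in the stimulated libraries, against 1.17% (0.955 to 1.44) and 1.05% (0.839 to 1.32) in the controls. These intervals cover counting error only.

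Ratios between the paralogues, which need no scaling of the libraries, moved for all 3 pairs. The log2 ratio of Pim2 over Pim3 per kb was -0.65 and -0.80 in stimulated 1 and 2, against -5.90 and -6.08 in control 1 and 2, a difference of 5.27. The log2 ratio of Pim1 over Pim3 was 0.94 and 1.05 in the stimulated libraries, against -0.80 and -0.85 in the controls, so that it changed sign. The log2 ratio of Pim1 over Pim2 was 1.59 and 1.85 in the stimulated libraries, against 5.10 and 5.23 in the controls. Groups did not overlap for any of the 3 pairs, with the same exact permutation p = 0.333 for each, again the smallest possible.

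No stretch of 50 bases is shared between the annotated exons of the 3 genes, which bears on how far their reads could be mixed up. At a length of 20 bases, Pim1 and Pim3 share 5 words, and Pim2 shares 0 with either. The coding sequences were 74.3% identical over aligned bases between Pim1 and Pim3, 66.7% between Pim2 and Pim3 and 66.1% between Pim1 and Pim2. The Pim2 coding sequence of 1130 bases is annotated with 0 bases of 5' UTR before it, so it may be incomplete. In the coordinates of the count tables, Pim1 lies on chromosome 17 from 29490812 to 29496111, Pim2 on chromosome X from 7878262 to 7883432 and Pim3 on chromosome 15 from 88862186 to 88865718, all on the plus strand. The start of Pim1 overlaps Gm26885, a gene listed on the opposite strand, and whether counting used strand was not stated, so their shared reads cannot be told apart. Gm26885 had 47 and 54 counts in the stimulated libraries, against 23 and 13 in the controls, where Pim1 had 12482 and 10269 against 2880 and 2580.

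The 3' ends of the transcripts differ in AU-rich words, which are known to mark short-lived cytokine and growth factor mRNAs. The 3' UTR of Pim1 holds 5 ATTTA pentamers in 1365 bases, that of Pim3 5 in 964 bases and that of Pim2 2 in 915 bases. Per kb these are 3.66, 5.19 and 2.19 pentamers, against a median of 1.31 over the 19171 annotated 3' UTRs of at least 100 bases, of which 65.8% hold the pentamer. The longer word TTATTTATT occurs 3 times in Pim1, in neither of the others, and in 7.43% of those 3' UTRs. Its 3 matches in Pim1 overlap each other in the same run of ATTTA pentamers. The pentamers at bases 950, 954, 958 and 962 of the Pim1 3' UTR overlap in that run, and all count in the values above. Sites are given for the densest stretch of Pim1 and Pim3 and the first of Pim2, all in exon 6, with the pentamers in capitals (GRCm38, plus strand).
Pim1, chr17:29495685-29495714: aagttttaatgtATTTATTTATTTATTTAt
Pim2, chrX:7883371-7883400: cctgcctggattATTTAaaaagccatgtgt
Pim3, chr15:88865268-88865297: cctgctggggctATTTAttgtttaATTTAt

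Genes beside the PIM genes were examined to see whether the rise extended along the chromosome, and no tested neighbour came near the change of Pim2. Within 100 kb of Pim2, 7 genes were tested, of which 2 rose and 5 did not pass, with a median log2 change of 0.48, where 17.5% of all genes tested were higher. Slc35a2, a Golgi UDP-galactose transporter gene that starts 0.609 kb beyond the end of Pim2, rose by 0.69 ± 0.16 (edgeR adjusted p = 0.0179, and 0.118 without stimulated 1). Pqbp1, a splicing-related gene, rose by 0.72 ± 0.13 (edgeR adjusted p = 0.00724). Otud5, a deubiquitinase gene that ends 1.64 kb before Pim2, had -0.12 ± 0.14, and Timm17b had 0.08 ± 0.17, Gripap1 0.25 ± 0.15, Hdac6 0.48 ± 0.18 and Kcnd1 1.29 ± 0.46 from under 1 CPM. Without stimulated 1, 1 of the 7 passed.

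Near Pim1, 3 genes were tested and 1 rose, where 17.5% of all genes tested were higher. The 1 that rose was the overlapping Gm26885 (1.79 ± 0.39, edgeR adjusted p = 0.0126). Tbc1d22b, a Rab GTPase-activating protein gene, had 38.4 ± 3.04 CPM in stimulated and 42.1 ± 1.61 CPM in control cells (-0.13 ± 0.14), and Tbc1d22bos had -0.74 ± 0.49. Near Pim3, 3 genes were tested and 1 rose, beside the same 17.5% of all genes tested. Creld2, an endoplasmic reticulum stress-responsive gene, rose by 0.86 ± 0.15 (edgeR adjusted p = 0.00588). Its 218 ± 13.2 CPM in stimulated and 120 ± 15.0 CPM in control cells gave a log2 change above that of Pim3 itself. Alg12 had 0.05 ± 0.17, a value that turned below 0 in some alternatives, and Zbed4 had 0.38 ± 0.18.

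**Figure D3:**
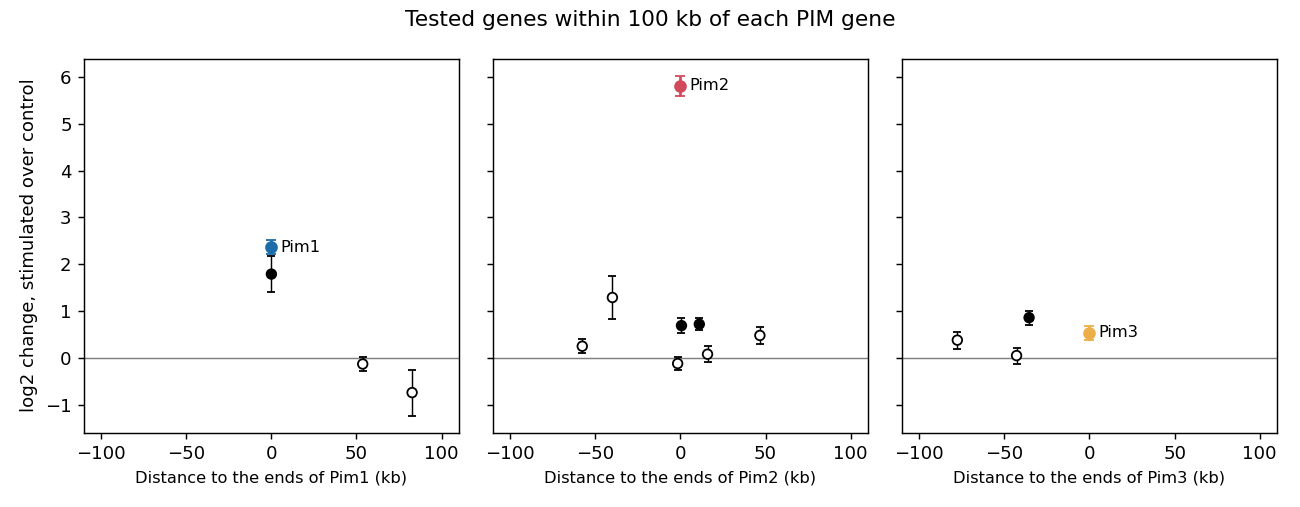
Log2 change, stimulated over control, with SE, of each PIM gene (colour) and of the tested genes within 100 kb (black), against the distance in kb to the ends of the PIM gene; filled points passed an adjusted p of 0.05. Pim2 stands at 5.81 while its 7 tested neighbours lie between -0.12 and 1.29.

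Genes nearest in pattern to each PIM gene were sought among 9454 tested genes with an established symbol and at least 5 CPM on average. Predicted genes, clone names and genes of the mitochondrial genome were left out. The measure was the root mean square difference of centred log2 CPM over the 4 libraries. Nearest to Pim1 were Eef1e1, Milr1, Nlrc5, Ddx11 and Batf, at differences of 0.037 to 0.087. Batf, an AP-1 family factor of lymphocytes, had 83.2 and 66.3 CPM in stimulated 1 and 2, against 15.3 and 12.8 CPM in control 1 and 2. Nearest to Pim2 were Grm7, Prickle1, Ifi47, Serpina3i and Nkain1, at 0.151 to 0.449, with log2 changes of 5.21 to 5.86. None of these 5 was among the nearest 5 when a pseudocount of 0.25 CPM replaced 0.01 CPM. Nearest to Pim3 were Cks2, Ppa2, Mfn1, Aldh4a1 and Map2k2, at 0.010 to 0.016, and the likeness of 4 libraries in 2 groups says little beyond the size of the change.

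Genes on the route from the receptors to PIM transcription moved in both directions. Of 18 genes of the receptors, JAK kinases, STAT factors and NF-kB, 6 rose, 3 fell and 9 did not pass, with a median log2 change of 0.12 against -0.016 for all 13838 genes tested, of which 17.5% were higher and 18.3% lower. Stat5a, a factor known to bind PIM genes, had 708 ± 157 CPM in stimulated and 74.8 ± 4.79 CPM in control cells (3.24 ± 0.20, edgeR adjusted p = 0.000239). Its close relative Stat5b had 0.58 ± 0.22 and did not pass. Jak2, which carries the IL-23 receptor signal, rose by 1.28 ± 0.16, while Tyk2, its partner kinase at that receptor, had -0.58 ± 0.14 and passed as lower. The receptor genes Il1r1 and Il23r fell by 3.07 and 1.03 on the log2 scale, while Il12rb1, the other IL-23 receptor chain, rose by 0.90 ± 0.22 and Il1rap, the IL-1 receptor partner chain, had 0.23 ± 0.16 and did not pass. Nfkb2, the most abundant gene not past the threshold, had -0.43 ± 0.15.

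Other genes known as STAT targets rose more often than not. Of 13 tested, 9 rose, 1 fell and 3 did not pass, with a median log2 change of 1.55, and Osm was below the filter. Over all 13838 genes tested, 17.5% were higher and 18.3% lower. Cish, a feedback inhibitor of cytokine receptors, had 37.9 ± 7.24 CPM in stimulated and 2.60 ± 0.446 CPM in control cells (3.86 ± 0.23, edgeR adjusted p = 0.00023). Socs1, a feedback inhibitor of JAK kinases, had 247 ± 48.1 CPM in stimulated and 23.1 ± 1.57 CPM in control cells (3.42 ± 0.19). Pim2 exceeded every tested member of this list in log2 change, and Pim1 lay between Myc (1.58 ± 0.23) and Socs3 (2.54 ± 0.17), as values side by side. Bcl2, an anti-apoptotic gene, fell to 125 ± 20.1 CPM in stimulated cells, against 296 ± 48.7 CPM in control cells (-1.24 ± 0.19), and Mcl1 had 0.29 ± 0.16.

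Among 11 tested genes of proteins that act on AU-rich words or related 3' UTR elements, 2 rose, 2 fell and 7 did not pass, with a median log2 change of 0.16. These shares are near those of all genes tested, of which 17.5% were higher and 18.3% lower. Zfp36l2 and Zfp36l1, which encode decay factors of the tristetraprolin family, had -1.84 ± 0.17 and -1.08 ± 0.28, and both passed. Zfp36, of the same family, had -0.36 ± 0.24 with overlapping groups and did not pass. Zc3h12a, another member of the list, had 0.93 ± 0.29 and did not pass. Zfp36l1 had an edgeR adjusted p = 0.0279, with 0.0968 without stimulated 2 and a change of -0.69 without control 1. Elavl1, which encodes the stabilising protein HuR, rose by 0.61 ± 0.14 (edgeR adjusted p = 0.0142, with 0.0759 without stimulated 1 and 0.0556 without control 1). Tia1 rose by 0.44 ± 0.13, a call that ended without any 1 of the 4 libraries (adjusted p of 0.0771 to 0.177), and Khsrp had 0.19 ± 0.14. Higher members numbered 1 without stimulated 1, control 1 or control 2, and lower members 1 without stimulated 2.

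Of 10 tested genes of chaperones that hold PIM kinases stable and of their turnover, 3 rose, 1 fell and 6 did not pass, where 17.5% of all genes tested were higher and 18.3% lower. The median log2 change was 0.27. Hsp90ab1 had 1698.1 ± 72.4 CPM in stimulated and 721 ± 52.2 CPM in control cells (1.24 ± 0.16, edgeR adjusted p = 0.00185), and Hsp90aa1 rose by 1.55 ± 0.16 and Hspa8 by 1.01 ± 0.14. The co-chaperone genes Cdc37 (0.39 ± 0.15) and Stub1 (-0.02 ± 0.13) did not pass. Ppp2r5a, a regulatory subunit of PP2A, had -0.45 ± 0.14 (edgeR adjusted p = 0.0439). Its call ended without any 1 of the 4 libraries, at 0.074 to 0.179, and with DESeq2 size factors. Ppp2r1a had 0.09 ± 0.19, a value whose sign differed between alternatives.

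Genes of proteins that PIM kinases phosphorylate were measured as transcripts, which say nothing of the phosphorylation. Of 15 survival and signalling substrates tested, 3 rose, 5 fell and 7 did not pass, with a median log2 change of -0.28. The share that rose was near the 17.5% of all genes tested that were higher, where 18.3% were lower. Cxcr4, the chemokine receptor whose surface display PIM1 supports in human cells, fell to 44.1 ± 11.3 CPM in stimulated cells, against 179 ± 46.2 CPM in control cells (-2.02 ± 0.25, edgeR adjusted p = 0.00227). Nfatc1 fell by 1.83 on the log2 scale, and the pro-apoptotic kinase Map3k5 changed by -1.38 ± 0.22 and passed. Notch1 rose by 1.80 ± 0.21, and Mdm2, whose protein targets p53 for destruction, by 0.59 ± 0.14 (edgeR adjusted p = 0.0188, with 0.0792 without stimulated 1 and 0.0929 without control 1). Bad, a death-promoting BCL-2 family gene and classic PIM substrate, had -0.30 ± 0.16, and Eif4b had 995 ± 139 CPM in stimulated and 1055.5 ± 27.9 CPM in control cells.

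Of 9 cell cycle and chromatin substrates, 2 fell and 7 did not pass in edgeR, with a median log2 change of 0.31. The share that fell was near the 18.3% of all genes tested that were lower, where 17.5% were higher. Higher members numbered 0 at the adjusted threshold, 4 at an unadjusted p under 0.05, 2 in DESeq2 and 0 in limma-voom. At an unadjusted edgeR p under 0.05, 3120 of all 13838 genes tested were higher. Cdkn1b, which encodes the cell cycle inhibitor p27, fell to 169 ± 13.8 CPM in stimulated cells, against 361 ± 41.1 CPM in control cells (-1.09 ± 0.16, edgeR adjusted p = 0.00266). Numa1, a spindle protein gene, had -0.68 ± 0.15 (edgeR adjusted p = 0.0118, with 0.0663 without stimulated 2, where lower members numbered 1). Snd1, which encodes the p100 coactivator bound by PIM1, had 0.41 ± 0.14 and did not pass.

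Genes of cap-dependent translation, a process that PIM and mTOR both promote, were mostly higher. Of 9 tested, 6 rose, 2 fell and 1 did not pass, with a median log2 change of 0.81. For all genes tested, 17.5% were higher and 18.3% lower, with a median of -0.016, so the share that fell was near that of all genes. Eif4e, the cap-binding protein gene, had 109.8 ± 12.5 CPM in stimulated and 52.0 ± 0.835 CPM in control cells (1.08 ± 0.14, edgeR adjusted p = 0.00218). Eif4ebp1, the translation repressor acted on by mTOR, rose by 0.88 ± 0.27 (edgeR adjusted p = 0.043), while its relative Eif4ebp2 had -0.70 ± 0.20, a call that ended without stimulated 1 (0.171), control 1 (0.0735) or control 2 (0.0619). Rptor had -0.50 ± 0.14, a call that ended without stimulated 1 (0.0651), stimulated 2 (0.182) or control 1 (0.128), so that lower members numbered 0 to 1 with any library left out. Mtor had 0.11 ± 0.16. Rps6 had 9.69 ± 0.399 CPM in stimulated and 2.95 ± 0.605 CPM in control cells, and whether reads shared with pseudogene copies bear on this value was not tested.

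The AKT, SGK and RSK kinases, listed with genes of the PI3K route, which act beside PIM kinases, did not rise as a group. Of 12 tested, 1 rose, 4 fell and 7 did not pass, with a median log2 change of -0.41. Across all genes tested, 17.5% were higher and 18.3% lower, with a median of -0.016. Akt1, the most abundant AKT gene, had 97.4 ± 5.37 CPM per kb in stimulated and 113 ± 8.89 CPM per kb in control cells, a change of -0.22 ± 0.15 that did not pass. Its level thus lay above each PIM gene in control cells and below Pim1 in stimulated cells, where Pim1 averaged 179 CPM per kb. Sgk1, a growth factor-induced kinase gene, changed by -2.20 ± 0.31 and passed. Akt2 rose by 0.61 ± 0.13 (edgeR adjusted p = 0.013, with 0.0631 without stimulated 1 and 0.056 without control 1).

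**Figure D4:**
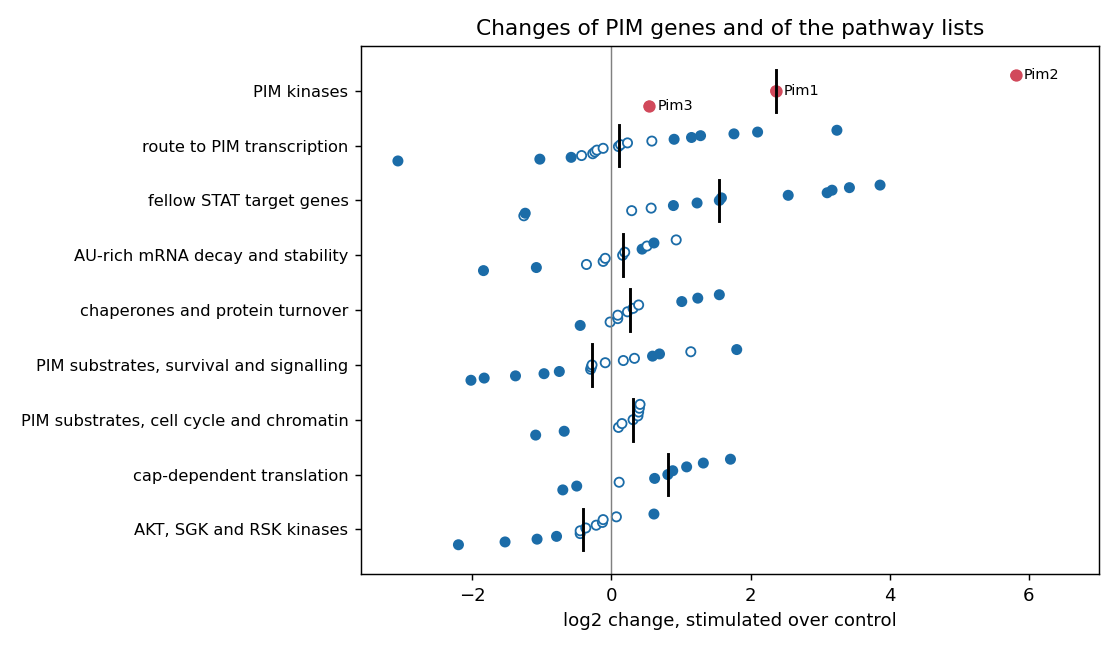
Log2 change, stimulated over control, of the 3 PIM genes (red) and of each tested member of 8 lists of related genes (blue); filled points passed an edgeR adjusted p of 0.05 and black lines mark medians. Pim2, at 5.81, lies to the right of all members shown, and the medians of the lists run from -0.41 for the AKT, SGK and RSK kinases to 1.55 for the other STAT targets.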

How the data were processed

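Tables of 4 libraries were used. Per the file headers, each deposited table gives a whole-number count per gene, which the authors did not normalise, with CPM and RPKM. Checked on the values, the deposited CPM are counts over their library total and the deposited RPKM are those CPM per kb of listed length. Neither was used further. Per the submitters' processing notes, tools included STAR, Subread and featureCounts, without versions. Build, annotation and strand setting: not given in the sources used here. Of 41388 identifiers, 40340 matched GENCODE M21, and 99.5% of these overlapped the annotated gene by position.

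Counts were compared with the quasi-likelihood test of edgeR 4.0.16 (R 4.3.3, limma 3.58.1) after filterByExpr, with TMM factors, a robust fit on treatment alone, and Benjamini-Hochberg adjustment over 13838 genes with a threshold of 0.05. The procedure was tested on simulated data. A gene that did not pass is not shown to be unchanged. CPM in the text are TMM-scaled, and the SE is the absolute log2 change over the square root of F. Depth and the spread of 2 libraries per group limit the precision, and the common biological coefficient of variation was 18.4%. Shares, ratios and sums were compared by exact permutation tests. The PIM genes and the 8 lists of 98 genes, written from textbook knowledge, were chosen with earlier results of these data known.

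Named genes were the PIM genes, tested genes with an established symbol within 100 kb, the 5 nearest in pattern, and of each list the 2 higher and 2 lower members ranked by adjusted p, plus its most abundant member that missed the threshold. Others named from the lists were chosen after their values were seen. Some genes that the rule names are not reported here. For nearest patterns a pseudocount of 0.01 CPM was set after 0.25 CPM had been tried. Alternatives were other scalings, filters and estimation, DESeq2 1.42.0, limma-voom, a block for the kind of title, lengths, and each library left out.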

Additional observations from a re-analysis of the deposited data

How the results depend on the processing

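The rises of Pim1 and Pim2 passed in all 13 alternatives, with log2 changes of 2.27 to 2.45 and 5.60 to 6.02. Pim3 passed in all 9 alternatives that kept the 4 libraries (0.45 to 0.56) and in 1 of the 4 that left a library out, where its change was 0.41 to 0.68. Fewer samples enter those fits, and whether that bears on the calls was not tested. With the longest annotated transcript as length, the difference in share was 16.6 percentage points for Pim1, 20.6 for Pim2 and -37.2 for Pim3. With a library left out, counts over all genes ran from 1593 to 2001 higher and 1665 to 2035 lower, lowest without stimulated 1, against 2417 and 2533.

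The titles share rep1 or no number across groups, and deviations of same-numbered libraries correlated at 0.49, but no label states a pairing. With a replicate block, 3986 genes were higher and 4000 lower, in a fit with 1 residual degree of freedom. Under the block, higher members numbered 4 for mRNA decay and stability factors, 5 for chaperones, 5 for survival substrates, 4 for cell cycle substrates, 5 near Pim2 and 2 near Pim3. Lower members numbered 5 on the route to PIM transcription, 2 among other STAT targets, 8 for survival substrates and 7 for AKT, SGK and RSK kinases. PIM calls did not change.

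mRNA decay and stability factors had 1 higher member with total count scaling and 4 with no filter, chaperones 0 lower with DESeq2 size factors, and cell cycle substrates 2 higher in the DESeq2 test. The cause of these moves was not tested. With a library left out, mRNA decay and stability factors had 1 to 2 higher and 1 to 2 lower, chaperones 0 lower, cell cycle substrates 1 to 2 lower, cap-dependent translation 0 to 1 lower, AKT, SGK and RSK kinases 0 to 1 higher, and genes near Pim2 1 to 3 higher. Signs turned for genes near no change. With total count scaling Alg12 had -0.04, Ppp2r1a -0.01 and Timm17b -0.02, and with upper quartile scaling Alg12 had -0.00. With a library left out, Alg12 had -0.09 to 0.21, Eif4b -0.23 to 0.08, Mtor -0.03 to 0.26, Ppp2r1a -0.16 to 0.33 and Timm17b -0.08 to 0.25.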
